A study of Mus musculus with 21 samples.

Results

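Nuclear genes for the subunits of oxidative phosphorylation were followed across mouse embryonic stem cells and their differentiating progeny. Members were the protein-coding rows of the count table whose symbol starts with Nduf followed by a, b, c, s or v and a digit, with Uqcr, with Cox4 to Cox8 or with Atp5, together with Cyc1 and without the Ndufaf assembly factors. This rule found 86 of the 78317 gene rows, with 39 in complex I, 9 in complex III, 19 in complex IV and 19 in complex V. The 86 rows carried 85 symbols, because Atp5po occurs under a pair of identifiers. One row, Cox5b-ps, bears the symbol of a pseudogene. The rule leaves out Ndufab1, which also belongs to complex I, and it places Ndufa4 in complex I, although that protein is known to associate with complex IV.

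Oxidative phosphorylation takes electrons from NADH through complex I and from succinate through complex II, and passes them through complexes III and IV to oxygen. Complexes I, III and IV pump protons across the inner mitochondrial membrane. Complex V, the ATP synthase, lets the protons flow back through a ring of c subunits and makes ATP in its F1 head. Complexes I, III, IV and V each mix proteins encoded by mitochondrial DNA with proteins encoded in the nucleus, and only the nuclear genes are members here. Pluripotent cells are known to draw heavily on glycolysis, and respiration is known to change as they leave that state.

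The study used E14, an established line of mouse embryonic stem (ES) cells, which are pluripotent cells of early embryos, and asked whether vitamin B6 moves them toward endoderm by way of glycolysis and histone lactylation. ES libraries came from cells under standard conditions. The other libraries came from cells kept for 3, 5 or 7 days in vehicle or in 20 µM pyridoxine (vitamin B6, VB6). These 7 groups held 3 libraries each, 21 in all, from 1 cell line with no genetic change named in the labels. The sources used here do not give the trigger of differentiation. Whether replicates were separate cultures is not stated, and p-values therefore measure only the spread between these libraries, which may be technical.

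Libraries held 15882380 to 21629730 expected counts (median 17972485), of which the members took 0.535 to 1.26%. Summed levels of 5 ES cell markers (Pou5f1, Sox2, Nanog, Zfp42 and Esrrb) were 2510 to 2840 CPM (counts scaled to library size) in ES libraries and 241 to 282 CPM in vehicle day 7 libraries. Summed levels of 4 visceral endoderm markers (Afp, Apoa1, Ttr and Apob) were 0.366 to 0.629 CPM in ES and 2920 to 3100 CPM in vehicle day 7. A pair of groups stood apart from the rest. The fragment length implied by the deposited values was 220.5 to 237 nt in vehicle day 5 libraries and 260.1 to 274.8 nt in VB6 day 7 libraries, against 302.7 to 315 nt in the other 15. Those 6 libraries also gave cytosolic ribosomal protein genes a smaller share of counts, 3.15 to 3.55% against 5.23 to 7.12%. Since 1 of these groups is the control at day 5 and the other the treated group at day 7, fragment length and VB6 cannot be told apart at those days. The members are short, with a median effective length of 388 nt among those tested against 1884 nt among all tested genes, and 35% of them against 3.2% of all genes were under 300 nt. For this reason each comparison is given also after a correction for GC content and length fitted in each library.

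Of the 86 members, 80 passed the filter on low counts, all of complexes I and III, 14 of 19 in complex IV and 18 of 19 in complex V. The 6 that did not pass were Cox5b-ps, Cox6a2, Cox7b2, Cox8b, Cox8c and the second Atp5po row. Per length, the F1 beta subunit Atp5f1b, which holds the catalytic sites, was the most abundant in ES cells at 1873 ± 55.1 TPM (transcripts scaled for length and library size; SD, n = 3). The small complex IV subunits Cox7c and Cox8a followed at 1555 ± 242 and 1091 ± 91.3 TPM. Among complex III genes Uqcr10 was highest at 714.2 ± 94.1 TPM, and among complex I genes Ndufa7 at 800.2 ± 110 TPM. Most members were highest in ES cells: 57 of the 80 had their highest group mean there and 21 in VB6 day 3. In 69 of the 80 the 2 lowest group means were those of vehicle day 5 and VB6 day 7, the groups with short fragments. The shares of all tested genes with these orders were not computed, so whether the members differ from other genes in this is not known.

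Complex sums followed the same order of groups. The complex I members summed to 2670 ± 264 CPM in ES (SD, n = 3), 2121 ± 83.7 in vehicle day 3, 1269 ± 14.1 in vehicle day 5 and 1934 ± 97.8 in vehicle day 7. With VB6 they summed to 2318 ± 32.5 CPM at day 3, 1911 ± 135 at day 5 and 1323 ± 41.0 at day 7. As a ratio to ES, complex V kept the largest share at day 3, 0.879 with vehicle and 0.878 with VB6, but at vehicle day 7 it stood at 0.609, beside 0.724 for complex I, 0.671 for complex III and 0.617 for complex IV. By TPM the complex V ratio at vehicle day 7 was 0.762, above the others' 0.618 to 0.756, so the order of complexes at that day depends on the unit. In bulk samples fewer cells of a type and less RNA per cell cannot be told apart.

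**Figure D1:**
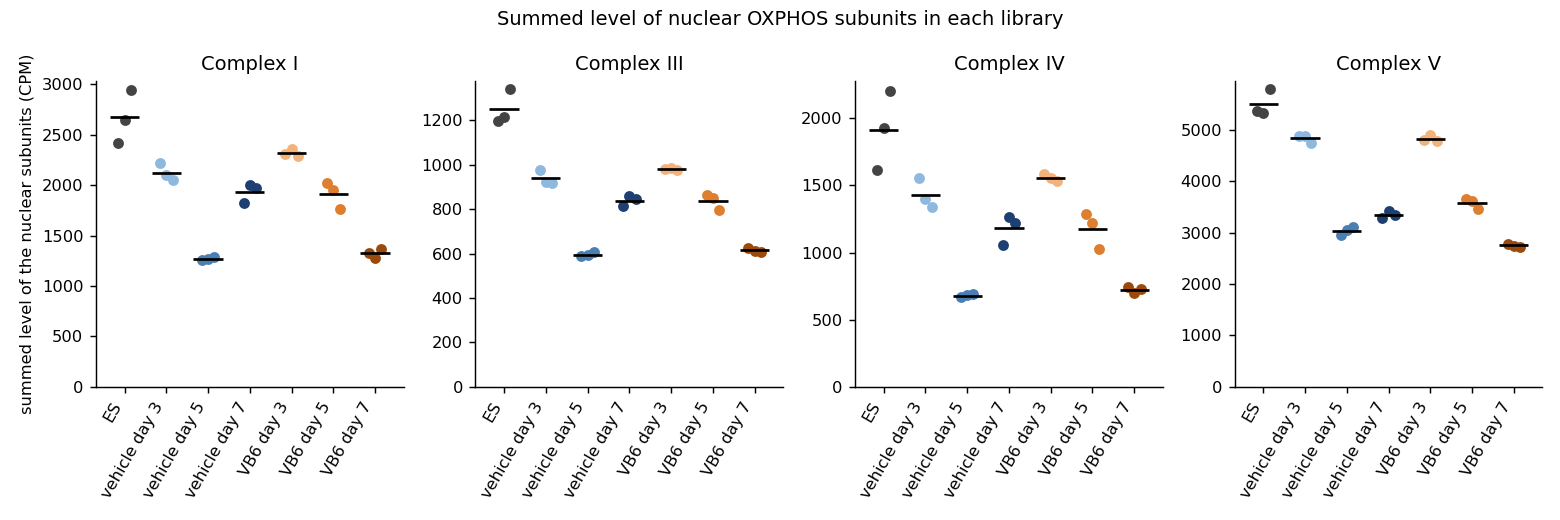
Summed CPM of the nuclear subunits of complexes I, III, IV and V on the vertical axis, with 1 point per library and a black line at each group's mean. In every panel ES is highest and vehicle day 5 and VB6 day 7, the libraries with short fragments, are lowest.

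From ES to vehicle day 3 the members fell as a group. Of the 80, 51 fell and 1 rose (edgeR quasi-likelihood test, Benjamini-Hochberg adjusted p under 0.05), beside 31.8% and 33.1% of all 18901 tested genes, and their median log2 fold change was -0.29 against 0.01 for all genes. Both groups had fragments of usual length, and after the correction 51 fell and 9 rose with a median of -0.21, beside 36.5% and 34.2% of the 16790 genes with both properties. The 5 ES cell markers summed to 1290 to 1430 CPM in vehicle day 3, and the part of changing cell states in these results was not tested. The largest falls were in second isoforms that are known to be restricted in adult tissue, while the core subunits of complex I fell less.

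In complex IV, which passes electrons from cytochrome c to oxygen, 11 of 14 tested members fell and none of the 14 rose in edgeR's test, nor at an unadjusted p under 0.05. Cox4i2, an isoform of the regulatory subunit IV known from lung and induced by low oxygen (chr2:152754173-152765037, mm10), stood at 8.48, 9.19 and 10.4 CPM in the ES libraries and at 1.53, 2.29 and 1.53 CPM in vehicle day 3. The groups did not overlap, and the log2 fold change was -2.40 (SE 0.17, adjusted p = 2.02e-11). Its ubiquitous partner Cox4i1 changed by -0.43 (SE 0.08, adjusted p = 3.1e-05). Cox6b2, the isoform of subunit VIb known from testis, stood at 35.8, 42.4 and 42.3 CPM in ES and at 13.1, 14.3 and 13.9 CPM in vehicle day 3, a log2 fold change of -1.55 (SE 0.12, adjusted p = 4.77e-11). The heart and muscle isoform Cox7a1 had low counts, 6.28 to 9.70 CPM in ES and 2.53 to 5.00 CPM in vehicle day 3, and fell by 1.18 on the log2 scale (SE 0.25). Of the subunits made in all tissues, Cox5a fell by 0.75 (SE 0.09) and Cox8a by 0.61 (SE 0.10).

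In complex I, the NADH dehydrogenase, 25 of 39 members fell. Ndufa4l2 (chr10:127514967-127517154, mm10), a relative of Ndufa4 known to be induced by low oxygen, stood at 86.7, 77.4 and 84.2 CPM in ES and at 20.8, 19.1 and 23.0 CPM in vehicle day 3. All 3 vehicle libraries lay far below all 3 ES libraries, with a log2 fold change of -1.98 (SE 0.11, adjusted p = 1.21e-13). Ndufb11b, a copy of the membrane-arm subunit Ndufb11 on chromosome 15, fell by 1.39 (SE 0.14). The accessory subunit Ndufb4 fell by 0.90 (SE 0.15), from 21.1, 28.0 and 37.5 CPM to 16.5, 14.8 and 15.0 CPM. Among the 7 nuclear core subunits, which carry the NADH site and the iron-sulfur chain, Ndufs7 fell by 0.57, Ndufv2 by 0.55 and Ndufs8 by 0.49, each with an SE under 0.09.

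In complex III, which carries electrons from ubiquinol to cytochrome c, 7 of 9 members fell. The largest fall was in Uqcrc1, the first core protein (chr9:108936633-108949623, mm10), from 377.8, 327.6 and 359.9 CPM to 186.0, 192.6 and 195.1 CPM, a log2 fold change of -0.89 (SE 0.06, adjusted p = 4.92e-12). Cytochrome c1 (Cyc1) fell by 0.39 (SE 0.05), the Rieske protein Uqcrfs1 by 0.23 (SE 0.06) and the second core protein Uqcrc2 by 0.20 (SE 0.05). In complex V, 8 of 18 members fell, beside 31.8% of all genes, with the smallest median of the 4 complexes at -0.16. After the correction 7 of the 18 (38.9%) were lower and 1 higher, beside 36.5% and 34.2% of all genes. Their median was then -0.06, against -0.02 for all genes. The share of complex V members lower was thus near that of all genes after the correction. The F1 alpha and beta subunits Atp5f1a and Atp5f1b changed by -0.22 (SE 0.05) and -0.24 (SE 0.04). The single member that rose was Atp5if1, the inhibitor that blocks ATP hydrolysis by the synthase, at 117.4, 142.7 and 155.9 CPM in ES and 180.9, 172.0 and 156.8 CPM in vehicle day 3. The log2 fold change was 0.29 (SE 0.09, adjusted p = 0.00894), and it was not called without ES replicate 1 (0.19, adjusted p = 0.0765).

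The steps after day 3 could be read in libraries with fragments of usual length along 2 separate courses, vehicle day 7 against vehicle day 3 and VB6 day 5 against VB6 day 3, which share no library. In vehicle, 34 members (42.5%) fell and 5 rose, beside 33.1% and 34.3% of all tested genes. With VB6, 57 fell and 3 rose, beside 26.4% and 29.9% of all tested genes. The median log2 fold changes were -0.14 and -0.31, while those of all genes were -0.01 and 0.02. Both courses lowered 32 of the same members, 94.1% of the vehicle list and 56.1% of the VB6 list, and raised 3, and no member was called in opposite directions. Over all tested genes 4235 were lower in both, 67.7% of the vehicle list and 85% of the VB6 list, and 143 had opposite calls. Over the 80 members the log2 fold changes of the 2 courses had a Pearson correlation of 0.74, against 0.80 over all tested genes, which also share each library's depth and composition. After the correction the vehicle course showed 29 lower (36.2%) and 22 higher, beside 37.7% and 35.3% of all genes, with a median of -0.03 against -0.02 for all genes, and limma on log2(TPM + 1) gave 21 lower and 20 higher. In vehicle the share of members lower was thus near that of all genes after the correction. The corrected VB6 course showed 37 lower and 6 higher (median -0.15), beside 32.4% and 28.9%.

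ATP synthase held several of the larger falls. Of its 18 tested members 11 were lower in vehicle and 16 with VB6, beside 33.1% and 26.4% of all genes. After the correction 9 were lower and 4 higher in vehicle, beside 37.7% and 35.3% of all genes. With VB6, 11 were then lower and 1 higher, beside 32.4% and 28.9%. The gene of its catalytic beta subunit, Atp5f1b (chr10:128083273-128090391, mm10), stood at 1767, 1883 and 1827 CPM in vehicle day 3 and at 1046, 1039 and 1003 CPM in vehicle day 7. With VB6 it stood at 1672, 1726 and 1674 CPM at day 3 and at 1156, 1153 and 1168 CPM at day 5. Neither course showed overlap between its days, and the log2 fold changes were -0.83 (SE 0.04, adjusted p = 3.32e-14) and -0.55 (SE 0.04, adjusted p = 1.61e-10), and -0.90 and -0.64 after the correction. Atp5f1b has a long transcript for a member, with an effective length of 1500.3 nt. Its partner in the F1 head, Atp5f1a, fell by 0.62 in vehicle and by 0.34 with VB6 (SE 0.05 each).

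Of the 3 genes for the c subunit, which differ in their import sequences and encode the same mature protein, Atp5mc1 was the one called lower in both courses. It stood at 134.3, 122.4 and 109.2 CPM in vehicle day 3 and at 52.4, 65.6 and 63.2 CPM in vehicle day 7, and at 133.9, 132.2 and 139.4 CPM in VB6 day 3 and 66.7, 68.7 and 54.9 CPM in VB6 day 5. In both courses all later libraries were at about the same level and below all day 3 libraries, with log2 fold changes of -1.01 (SE 0.10, adjusted p = 5.9e-09) and -1.09 (SE 0.10, adjusted p = 3.46e-09), and -0.85 and -0.78 after the correction. Atp5mc3 showed -0.08 in vehicle, which was not called, and -0.30 with VB6 (SE 0.09), which was lost after the correction (-0.06, adjusted p = 0.305) and without VB6 day 5 replicate 3 (-0.22). As a share of the TPM of Atp5mc1 and Atp5mc3, Atp5mc1 made up 42.7 ± 0.576% in ES, 42.8 ± 0.441% in vehicle day 3 and 40.7 ± 0.629% in VB6 day 3, but 28.1 ± 0.345% in vehicle day 7 and 28.0 ± 0.881% in VB6 day 5 (SD, n = 3). In the groups with short fragments it was 23.8 ± 0.793% (vehicle day 5) and 26.1 ± 1.21% (VB6 day 7). The third gene, Atp5mc2, was low in all groups, at 4.78 to 6.77% of its sum with Atp5mc3.

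Complexes I and IV also held changes past 0.5 in vehicle, the largest being Ndufb11b of complex I at -3.42, and differences between complexes were not tested. The membrane subunit g gene of ATP synthase, Atp5mg, fell by 0.82 (SE 0.12) in vehicle and by 0.80 (SE 0.12) with VB6. In complex IV, Cox6c fell by 0.55 and 0.86 (SE 0.12 each), Cox7b by 0.59 and 0.64 (SE 0.10 each) and Cox7c by 0.76 and 0.68 (SE 0.11 each), although the Cox7c change with VB6 was lost after the correction (-0.04, adjusted p = 0.498). In complex III, Uqcr11 fell by 0.44 and 0.78 (SE 0.12 each). Among core subunits of complex I, Ndufs1, the largest iron-sulfur protein, fell by 0.57 and 0.43 (SE 0.05 each), and the NADH-binding Ndufv1 by 0.52 and 0.29 (SE 0.05 each). With VB6 the Ndufv1 change was not called by limma on log2(TPM + 1) (-0.06, adjusted p = 0.315). The accessory Ndufa1 fell by 0.63 in both, although with VB6 the call was lost after the correction (-0.20, adjusted p = 0.072). Of the 3 members that rose in both courses, Cox6b2 changed by 0.71 (SE 0.12) and 0.60 (SE 0.12), the F1 delta subunit Atp5f1d by 0.34 and 0.23 (SE 0.06 each) and Cox4i2 by 0.59 (SE 0.19) and 0.52 (SE 0.18). The rise of Atp5f1d with VB6 was 0.09 after the correction (adjusted p = 0.132), and that of Cox4i2 was no longer called in vehicle without vehicle day 3 replicate 3 or vehicle day 7 replicate 1 (0.49 each) or with VB6 without VB6 day 3 replicate 1 or VB6 day 5 replicate 3 (0.45 and 0.49). In vehicle Cox7a2l, known to help complexes III and IV associate, rose by 0.44 (SE 0.09) and Cox6b1 by 0.35 (SE 0.10), while with VB6 they showed 0.14 and -0.20 and were not called. The difference between the courses was not tested. Levels of cell type markers moved with this step. The 4 visceral endoderm markers summed to 75.1 to 94.6 CPM in vehicle day 3 and to 2920 to 3100 CPM in vehicle day 7, and 5 fibroblast markers (Col1a1, Col1a2, Thy1, Dcn and Postn) to 21.2 to 24.1 CPM and 418 to 590 CPM. The collagens made up most of that sum at day 7 (188 ± 32.9 CPM of Col1a1 and 319 ± 59.3 CPM of Col1a2), while Thy1 went from 13.4 to 4.25 CPM and Dcn from 1.11 to 0.25 CPM (means, n = 3). With VB6 the visceral endoderm sum went from 108 to 129 CPM at day 3 to 1250 to 1470 CPM at day 5, and the fibroblast sum from 24.6 to 28.5 CPM to 47.2 to 65.2 CPM, with Thy1 at 19.3 and then 14 CPM. The part of changing cell types in these results was not tested.

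**Figure D2:**
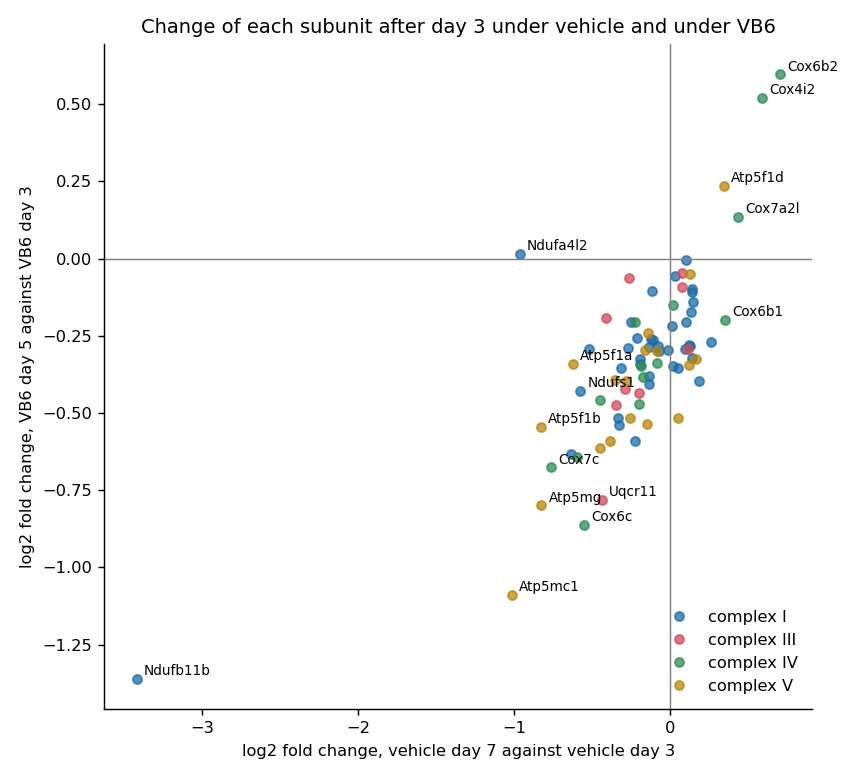
log2 fold change of each of the 80 tested subunits from vehicle day 3 to vehicle day 7 (horizontal axis) and from VB6 day 3 to VB6 day 5 (vertical axis), with 1 point per gene coloured by complex. Ndufb11b (-3.42 and -1.36) and Atp5mc1 (-1.01 and -1.09) are lowest, and Cox6b2 (0.71 and 0.60) and Cox4i2 (0.59 and 0.52) are highest.

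Several isoform pairs differed in balance between groups. Ndufb11b was lowest at day 7. It stood at 15.3, 13.0 and 13.7 CPM in ES, at 5.18, 5.66 and 5.16 CPM in vehicle day 3, at 1.13, 1.09 and 1.06 CPM in vehicle day 5 and at 0.498, 0.525 and 0.451 CPM in vehicle day 7. Each group lay wholly below the one before, and the change from vehicle day 3 to day 7 was -3.42 on the log2 scale (SE 0.21, adjusted p = 7.31e-13). With VB6 it went from 4.16, 4.14 and 3.36 CPM at day 3 to 0.301, 0.169 and 0.159 CPM at day 7. Its share of the pair with Ndufb11 by TPM was 15.7 ± 2.96% in ES, 9.10 ± 0.473% in vehicle day 3 and 0.859 ± 0.106% in vehicle day 7. The sources used here do not give how reads that match both copies were assigned, so the split between them is uncertain.

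Ndufa4l2 took 21.8 ± 3.15% of the pair with Ndufa4 in ES, 8.96 ± 1.96% in vehicle day 3 and 5.88 ± 0.672% in vehicle day 7, where its log2 fold change from day 3 was -0.96 (SE 0.12). Cox4i2 took 2.93 ± 0.0413% of the pair with Cox4i1 in ES, 0.773 ± 0.202% in vehicle day 3 and 1.36 ± 0.283% in vehicle day 7. Cox6b2 took 35.3 ± 1.98% of the pair with Cox6b1 in ES, 21.4 ± 2.16% in vehicle day 3 and 20.5 ± 0.606% in VB6 day 3, 26.2 ± 1.57% in vehicle day 7 and 32.0 ± 0.848% in VB6 day 5. For the Cox4i and Cox6b pairs the second isoform lost share between ES and day 3, and its share at vehicle day 7 and VB6 day 5 lay above all libraries of day 3. The complex IV pair of Cox7a1 with Cox7a2 differed in the later step. Cox7a1 took 45.8 ± 4.52% in ES, 31.6 ± 5.79% in vehicle day 3 and 31.3 ± 5.16% in vehicle day 7. With VB6 it took 27.5 ± 4.09% at day 3 and 29.3 ± 0.697% at day 5. Cox8b, Cox6a2, Cox7b2 and Cox8c, further isoforms known from heart and muscle or from testis, stayed near the limit of counting. Cox8b had no count in the 21 libraries, which allows up to 0.187 CPM per library (3 counts). Cox6a2 did not exceed 0.262 CPM and Cox7b2 did not exceed 0.472 CPM in any library. Cox8c, known from testis, was listed at 0.105 to 0.525 CPM in ES and at 0 in all 6 day 7 libraries.

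**Figure D3:**
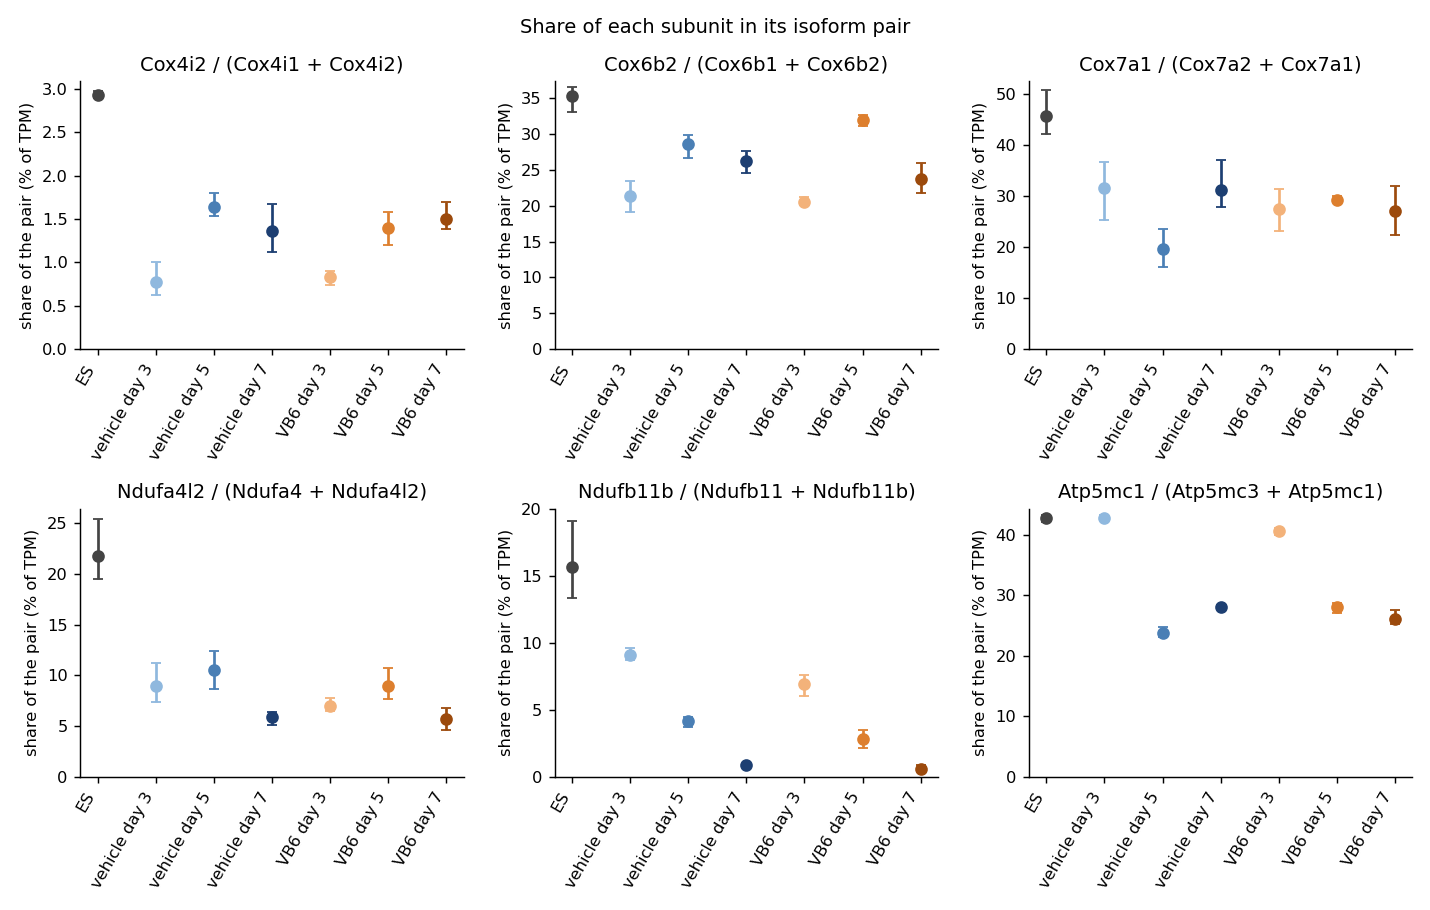
Share of one subunit in the summed TPM of an isoform pair (vertical axis, %), by group, with points at the mean of 3 libraries and bars from the lowest to the highest library. Cox4i2, Cox6b2, Cox7a1, Ndufa4l2 and Ndufb11b hold their largest share in ES, and Atp5mc1 drops from 42.8% in vehicle day 3 to 28.1% in vehicle day 7.

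Promoters were read for members with a window in RefSeq (GRCm38.p6; 250 bases before to 50 after the start), since most members moved together. Of the 85 symbols, 65 had a window. On either strand, the motif of the respiratory regulator NRF1 (GCGC, then any 2 bases, then GCGC) occurred in 24.6% of them and in 6.23% of all 32851 windows (8.57% of those of protein-coding genes). CCGGAAG, an ETS motif as bound by GABP, occurred in 21.5% of members' promoters and 8.86% of all windows (11.6% of protein-coding), and ATGGCGGC, a YY1 motif, in 10.8% and 2.24% (3.02%). GGGCGG, the SP1 box, occurred in 38.5% and 35.7%, which is below the 46.2% of protein-coding windows. Matches of different motifs may overlap, and each was counted. The 250 bases before the start are shown for Ndufs5 and Cox6a1, which are among the members with the largest differences between VB6 and vehicle at day 5. They are also shown for the pairs Cox6b1 and Cox6b2 and Atp5mc1 and Atp5mc3, whose shares within the pair differed between groups. Capitals mark these 4 motifs.
Ndufs5, chr4:123718187-123718436, minus strand: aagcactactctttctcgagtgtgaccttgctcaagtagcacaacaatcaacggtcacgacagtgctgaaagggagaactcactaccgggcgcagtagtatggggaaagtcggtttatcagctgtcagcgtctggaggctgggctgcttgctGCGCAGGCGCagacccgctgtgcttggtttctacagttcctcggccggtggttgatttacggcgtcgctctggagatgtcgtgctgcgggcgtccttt
Cox6a1, chr5:115348959-115349208, minus strand: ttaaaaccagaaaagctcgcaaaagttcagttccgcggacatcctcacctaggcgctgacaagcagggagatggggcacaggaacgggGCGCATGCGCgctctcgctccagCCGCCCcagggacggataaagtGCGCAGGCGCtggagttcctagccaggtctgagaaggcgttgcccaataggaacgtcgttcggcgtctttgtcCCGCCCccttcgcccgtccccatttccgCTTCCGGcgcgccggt
Cox6b1, chr7:30626115-30626364, minus strand: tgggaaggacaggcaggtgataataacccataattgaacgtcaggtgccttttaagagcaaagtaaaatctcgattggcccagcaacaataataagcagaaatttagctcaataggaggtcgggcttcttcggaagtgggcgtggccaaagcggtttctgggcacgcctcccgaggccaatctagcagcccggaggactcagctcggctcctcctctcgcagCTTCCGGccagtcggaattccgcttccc
Cox6b2, chr7:4753095-4753344, minus strand: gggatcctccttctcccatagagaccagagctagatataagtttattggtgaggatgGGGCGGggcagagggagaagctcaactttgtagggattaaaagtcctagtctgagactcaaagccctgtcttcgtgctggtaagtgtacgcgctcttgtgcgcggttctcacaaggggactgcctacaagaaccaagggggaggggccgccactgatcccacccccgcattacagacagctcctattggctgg
Atp5mc1, chr11:96075632-96075881, minus strand: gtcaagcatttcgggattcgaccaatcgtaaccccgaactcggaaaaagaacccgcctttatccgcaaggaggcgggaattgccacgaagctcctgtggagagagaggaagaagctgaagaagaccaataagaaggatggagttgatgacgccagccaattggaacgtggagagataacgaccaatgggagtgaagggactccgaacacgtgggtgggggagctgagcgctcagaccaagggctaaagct
Atp5mc3, chr2:73911327-73911576, minus strand: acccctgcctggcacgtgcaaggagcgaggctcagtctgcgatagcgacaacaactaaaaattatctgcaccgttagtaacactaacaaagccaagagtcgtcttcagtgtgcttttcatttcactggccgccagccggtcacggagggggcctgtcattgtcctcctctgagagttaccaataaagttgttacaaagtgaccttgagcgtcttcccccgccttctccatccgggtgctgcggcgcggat
Cox6a1 holds 2 NRF1 motifs, 2 SP1 boxes and 1 ETS motif, while the window of Atp5mc1 shows none of the 4. Atp5mc3 has 1 NRF1 motif beginning 13 bases after the start, outside the stretch shown. A match is a description of letters and not a site of binding.

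At day 3, 2 of 80 members were called between VB6 and vehicle. Both rose and none fell, beside 1.49% and 2.77% of all tested genes, with a median log2 fold change of 0.16. At an unadjusted p under 0.05 edgeR gave 28 higher and 5 lower, and DESeq2 called 7 higher and 0 lower. Shares of all genes for those counts are not given here, so they cannot be set against a background. The 2 called by edgeR were complex I subunits. Ndufs8, a core iron-sulfur protein, stood at 33.7, 29.3 and 36.7 CPM with vehicle and 40.5, 42.4 and 40.9 CPM with VB6, and changed by 0.31 (SE 0.09, adjusted p = 0.0431). The accessory Ndufa12 stood at 60.6, 51.3 and 49.2 CPM and 61.0, 70.2 and 65.7 CPM, and changed by 0.29 (SE 0.08, adjusted p = 0.0497). In both the libraries did not overlap, but neither call held in every alternative. Corrected for GC content and length, the changes were 0.23 (adjusted p = 0.0795) and 0.14 (adjusted p = 0.151). After the correction 2 members were higher and 2 lower, beside 3.04% and 4.22% of all genes. The count of members called higher ran from 0 to 26 over the alternatives, with 26 when only these 2 groups were fitted. The share of all genes called in that fit is not given here either.

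At day 5 most members were higher with VB6 than with vehicle. Of the 80, 70 rose and 4 fell, beside 31.2% and 25.5% of all tested genes, and the median log2 fold change was 0.71. All 14 tested complex IV members rose (median 0.89), as did 35 of 39 in complex I (0.74), 8 of 9 in complex III (0.57) and 13 of 18 in complex V (0.46). The accessory subunit Ndufs5 stood at 8.32, 6.97 and 6.88 CPM with vehicle and at 29.1, 24.5 and 20.2 CPM with VB6, a log2 fold change of 1.73 (SE 0.16, adjusted p = 3.11e-09). Uqcr10, a small complex III subunit, stood at 15.3, 16.1 and 15.2 CPM and 47.7, 45.0 and 39.3 CPM (1.51, SE 0.12), and Cox6a1 of complex IV at 41.26, 39.96 and 43.53 CPM and 120.4, 118.3 and 103.5 CPM (1.46, SE 0.08). For these 3 the groups were far apart, and the vehicle libraries were the low ones: vehicle day 3 and day 7 had 23.5 to 28.6 CPM of Ndufs5, within the range of VB6 day 5. The accessory complex I subunits Ndufa2 and Ndufa11 changed by 1.31 and 1.28, Uqcrq of complex III by 1.28 and Atp5f1d by 1.19. Accordingly, from vehicle day 3 to day 5 70 members fell and 2 rose, beside 33.4% and 31.9% of all genes, and from vehicle day 5 to day 7 69 rose and 5 fell, beside 35.2% and 31.1%. After the correction the first step gave 57 lower and 10 higher, beside 33.6% and 32.1% of all genes, and the second 53 higher and 10 lower, beside 31.1% and 30.8%. Ndufs5 changed by -1.74 and then by 1.88, Uqcr10 by -1.84 and 1.49, and Cox6a1 by -1.74 and 1.56. Atp5mc1 fell by 1.71 and Ndufb11b by 2.27 from day 3 to day 5, where the 2 that rose were Ndufv2 (0.23) and Uqcrc2 (0.18). From day 5 to day 7 Ndufb11b fell by 1.15, Ndufs1 by 0.44 and Atp5pb by 0.25. After the correction neither rise from day 3 to day 5 was called (Ndufv2 0.07, adjusted p = 0.186, and Uqcrc2 -0.04, adjusted p = 0.385). Atp5pb turned to 0.53 from day 5 to day 7 (adjusted p = 3.41e-10).

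Vehicle day 5 is the group with the shortest fragments, and the difference followed transcript length among the members. In the 28 members under 300 nt the median log2 fold change between VB6 and vehicle at day 5 was 0.91, in the 39 from 300 nt to under 1000 nt it was 0.73, and in the 13 of 1000 nt or more it was 0.25. Over the 80 members the log2 fold change had a Pearson correlation of -0.46 with log2 effective length, against -0.06 over 18242 genes. The 4 members that fell were the core subunit Ndufs1 (-0.28, effective length 2096.8 nt), Uqcrc2 (-0.15, 1576.4 nt), the stator subunit Atp5pb (-0.27, 1251.6 nt) and the F1 gamma subunit Atp5f1c (-0.15, 837.7 nt). Atp5f1c was not called without vehicle day 5 replicate 2 or 3 (-0.13 each) or VB6 day 5 replicate 3 (-0.11). After the correction 47 members were higher and 10 lower, beside 19.6% and 18.7% of the 16790 genes with both properties, and the median was 0.25. Ndufs5 kept 1.36 and Uqcr10 kept 0.85, while Cox6a1, whose transcript has 62.7% GC, kept 0.23 (adjusted p = 0.0099), Atp5pb turned to 0.37 and Uqcrc2 to 0.08. The fall of Ndufs1 was no longer called (-0.05, adjusted p = 0.396).

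At day 7 the direction was opposite. With VB6, 73 of 80 members were lower than with vehicle and none was higher (4 had a value above 0, and 1 an unadjusted p under 0.05), beside 17.9% and 18.6% of all tested genes, with a median of -0.72. DESeq2 called 1 member higher. Again all 14 complex IV members were among those called, with 37 of 39 in complex I, 8 of 9 in complex III and 14 of 18 in complex V. Ndufs5 stood at 25.03, 28.6 and 28.26 CPM with vehicle and 13.2, 10.5 and 13.4 CPM with VB6 (log2 fold change -1.14, SE 0.15, adjusted p = 2.38e-06). Uqcr11 stood at 37.9, 43.3 and 41.6 CPM and 17.2, 18.3 and 19.9 CPM (-1.15, SE 0.12), Cox7a2 changed by -1.14 (SE 0.17) and the membrane subunit Atp5me of ATP synthase by -0.95 (SE 0.15). Uqcr10 changed by -1.11 and Ndufa2 by -1.15. Ndufb11b changed by -1.22 (SE 0.37, adjusted p = 0.0349) and was not called without vehicle day 7 replicate 1 or 2 (-1.21 and -1.17) or VB6 day 7 replicate 2 or 3 (-1.10 and -1.06). Here the VB6 libraries were the ones with short fragments. The median was -0.84 under 300 nt, -0.72 from 300 nt to under 1000 nt and -0.20 from 1000 nt, and the correlation with log2 effective length was 0.63 over the 80 members and 0.17 over all genes.

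Of the 13 members of 1000 nt or more, 9 were called lower at day 7, among them the longest, Atp5f1a. Atp5pb, Ndufs1, Uqcrc2 and Ndufv2 were not called. Ndufs1 stood at 95.9, 100.1 and 93.5 CPM with vehicle and at 102.2, 103.4 and 107.8 CPM with VB6. Uqcrc2 stood at 147.0, 159.1 and 160.0 CPM and at 167.3, 166.0 and 152.7 CPM, and Ndufv2 at 85.9, 93.6 and 92.7 CPM and at 89.3, 85.8 and 84.6 CPM. The libraries of the treatments did not overlap for Ndufs1 and overlapped for Uqcrc2 and Ndufv2. After the correction 41 members were lower and 5 higher, beside 13.6% and 13.5% of the 16790 genes, and the median was -0.20. Ndufs5 kept -0.67 (adjusted p = 6.25e-06) and Cox7a2 -0.62, whereas Atp5me had -0.20 (adjusted p = 0.196). Cox6a1, named here after its values were seen, turned from -0.69 to 0.23 (adjusted p = 0.00901). From VB6 day 5 to day 7, 73 members fell and none rose, beside 27.3% and 27.3% of all genes (1 rose by DESeq2, and 1 had an unadjusted p under 0.05), with 42 lower and 8 higher after the correction, beside 27.3% and 28.7%. In that step Ndufb11b fell by 2.82, Ndufa4l2 by 1.47, Cox7a2 by 1.20, Uqcr10 by 1.13 and Atp5mc1 by 0.95. After the correction the correlation of VB6 against vehicle with log2 effective length was -0.32 at day 5 and 0.19 at day 7 over the 80 members. Over the 16790 genes it was 0.09 and -0.05. Some relation with length thus remained among the members, most of all at day 5. Whether the correction removes all of what short fragments do to these values was not tested. Tested as an interaction, the VB6 effect was more positive at day 5 than at day 3 in 59 members and more negative in 5, beside 27% and 21% of all genes, and after the correction in 32 and 9, beside 15% and 13.9%. From day 5 to day 7 it became more positive in 3 and more negative in 74, beside 27% and 30.8%, and after the correction in 11 and 49, beside 20.3% and 20.2%.

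**Figure D4:**
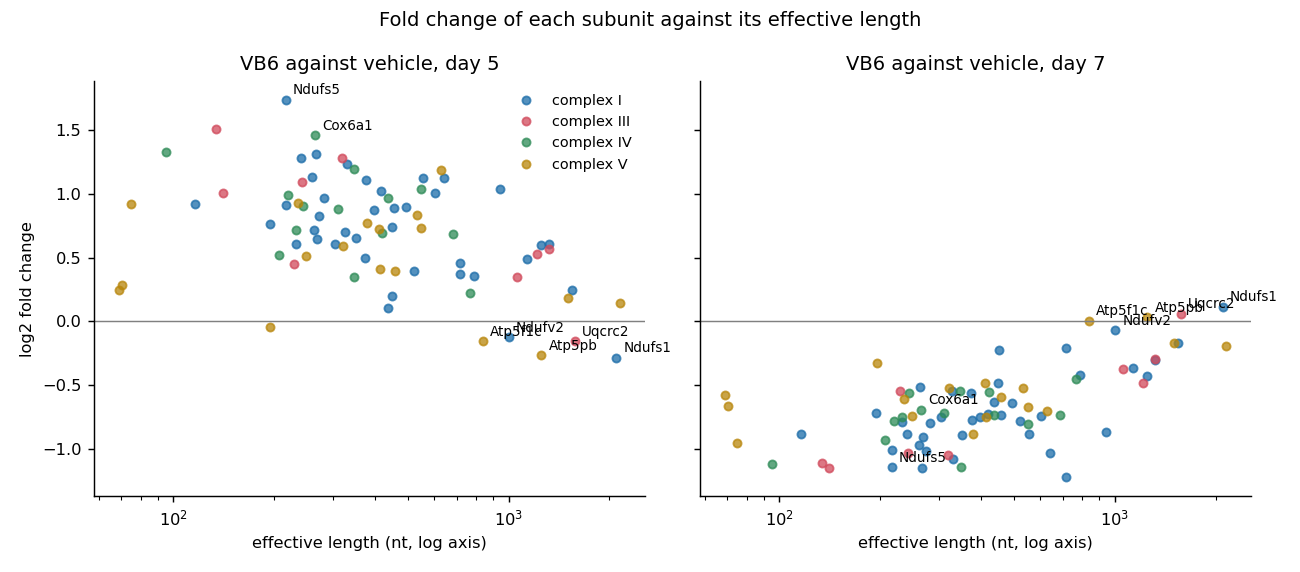
log2 fold change of each subunit between VB6 and vehicle at day 5 (left) and day 7 (right) against its effective length in nt on a log axis, with 1 point per gene coloured by complex. Short members such as Ndufs5 lie far from 0 on both days, at 1.73 and -1.14, and the long Ndufs1 lies at -0.28 and 0.12.

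**Figure D5:**
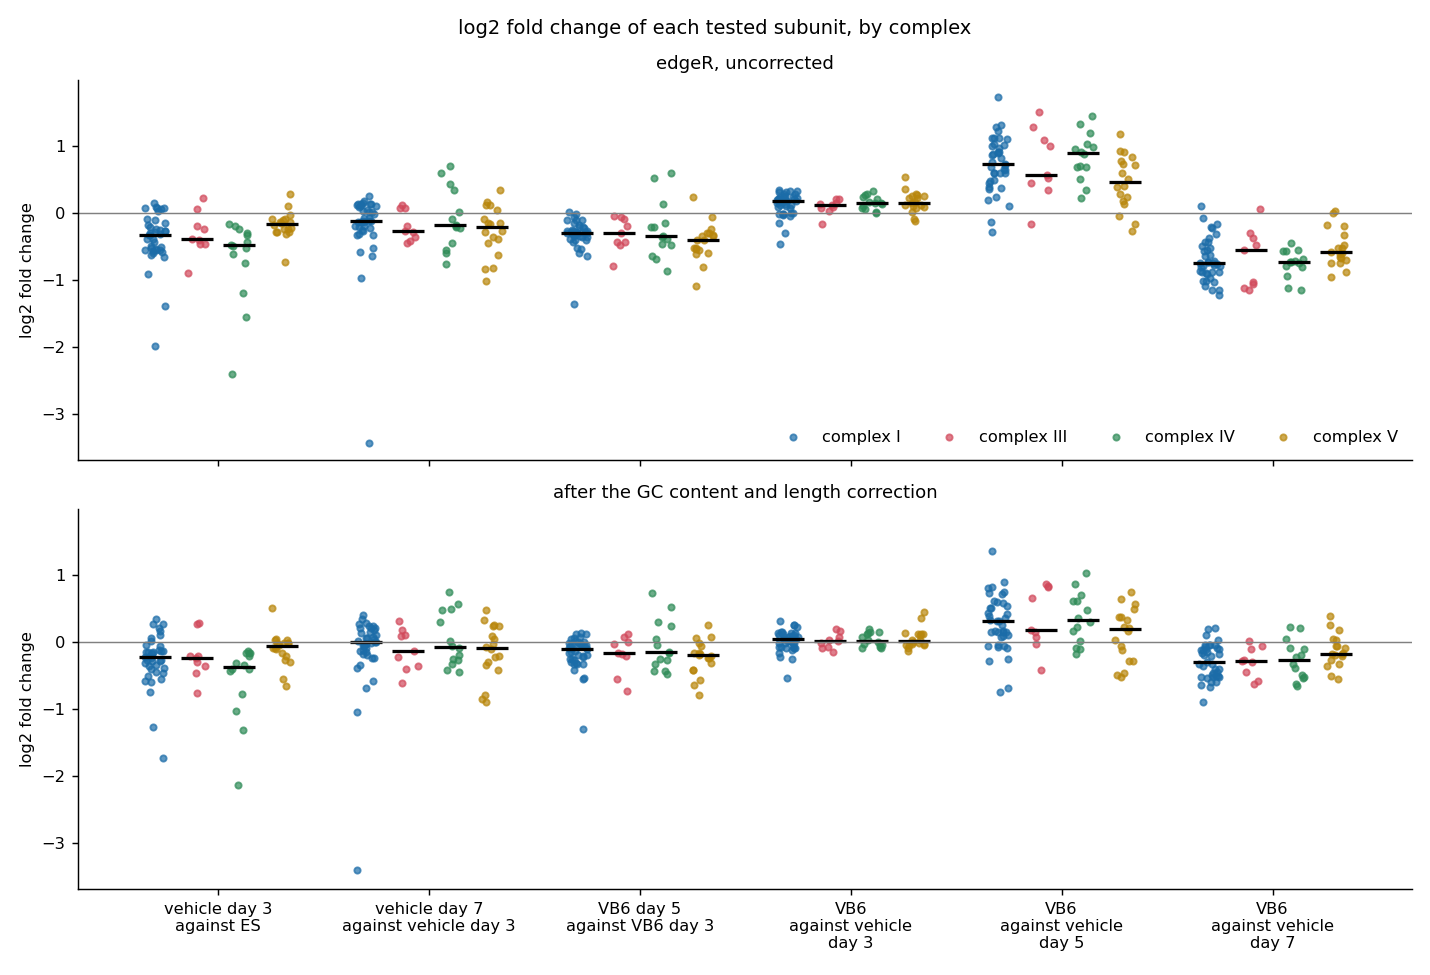
log2 fold change of the 80 tested subunits by complex (I, III, IV and V) in 6 comparisons, uncorrected (top) and after the correction for GC content and length (bottom), with 1 point per gene and a black line at the median of each complex. The shift at day 5 shrinks from a median over the 80 of 0.71 to 0.25 and that at day 7 from -0.72 to -0.20, while the fall from ES to vehicle day 3 goes from -0.29 to -0.21.

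From ES to vehicle day 3 the 4 subunits of complex II, the succinate dehydrogenase, all fell, beside 31.8% of all genes. Sdhc changed by -0.94 (SE 0.05) and Sdhb by -0.62 (SE 0.06), and the summed level of the 4 went from 613 to 643 CPM to 448 to 480 CPM. The 13 mitochondrially encoded subunits moved the other way. Of these 10 rose, beside 33.1% of all genes, and after the correction 8 rose and 1 fell, beside 34.2% and 36.5%. Their summed level went from 13900 to 17700 CPM to 23400 to 25700 CPM. Of 77 tested mitochondrial ribosomal proteins 23 rose and 22 fell in that step, near the shares of all genes (33.1% and 31.8%), with a median of -0.01. Of 13 tested regulators 6 rose and 4 fell, beside the same shares of all genes. Nrf1 rose by 0.47 (SE 0.06) and Lrpprc, which stabilises mitochondrial messengers, by 0.96 (SE 0.06), while Gabpa fell by 0.69 (SE 0.07). In the step from vehicle day 3 to day 7 Lrpprc fell by 1.12 (SE 0.06), Nrf1 by 0.42 (SE 0.06) and Gabpa by 0.71 (SE 0.07), and from VB6 day 3 to day 5 they fell by 0.76, 0.26 and 0.61. Not all regulators had lower means there. Esrra went from 12.9 to 24.2 CPM in vehicle and from 13.1 to 22 CPM with VB6 (means, n = 3). Yy1 stood at 58.4 CPM in ES, and went from 116 to 130 CPM in vehicle and from 106 to 125 CPM with VB6. With VB6, 58 mitochondrial ribosomal proteins were higher and 2 lower at day 5, beside 31.2% and 25.5% of all genes, and 48 and 5 after the correction, beside 19.6% and 18.7%. At day 7, 53 were lower and 0 higher in edgeR's test, beside 17.9% and 18.6% of all genes, and 35 and 4 after the correction, beside 13.6% and 13.5%. At an unadjusted p under 0.05 edgeR gave 56 lower and 0 higher at day 7, and DESeq2 called 51 lower and 0 higher. Shares of all genes for these last counts are not given here. Both days include a group with short fragments, which cannot be told apart from VB6 here.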

How the data were processed

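RNA from 21 libraries was analysed. The deposited values were expected counts, TPM and FPKM per gene, made by the authors on build mm10, per the submitters' processing notes. The sources used here do not give the aligner, counter, annotation or handling of multi-mapped reads. The deposited expected counts were rounded and tested with edgeR 4.0.16 (R 4.3.3), using TMM scaling, filterByExpr and the quasi-likelihood test over all 21 libraries, with Benjamini-Hochberg adjustment over all 18901 tested genes at 0.05. CPM are TMM-scaled. TPM and FPKM, which the authors had normalized, gave levels per length and effective lengths. GC content and length were corrected per library by splines with 5 degrees of freedom. DESeq2 1.42.0, limma 3.58.1 on log2(TPM + 1), no filter, other scaling, fewer groups, a replicate block and left-out libraries were alternatives. The fit was tested on simulated data.

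Members and lists were chosen with earlier results of these data known. Named members were those in the largest rises and falls per complex, core subunits, second isoforms and members moving against their complex.

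Library totals of 15882380 to 21629730 set the precision, and 3 counts correspond to 0.144 to 0.187 CPM. Rows absent from GENCODE M21 held 1.92% of counts.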

Additional observations from a re-analysis of the deposited data

Results flagged for a closer look

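The VB6 effect on the members differed between days in edgeR's interaction test. Between day 3 and day 5 the difference was positive in 59 members and negative in 5, beside 27% and 21% of all genes. It was 1.42 on the log2 scale for Ndufs5, 1.36 for Uqcr10, 1.39 for Cox6a1 and 1.17 for Atp5f1d. After the correction for GC content and length it was positive in 32 and negative in 9, beside 15% and 13.9%. Between day 5 and day 7 it was positive in 3 members and negative in 74, beside 27% and 30.8% of all genes. It was -2.88 for Ndufs5, -2.62 for Uqcr10, -2.15 for Cox6a1 and -1.89 for Atp5f1d. After the correction it was positive in 11 and negative in 49, beside 20.3% and 20.2%. The corrected VB6 effect on Cox6a1 was 0.23 at both day 5 and day 7. All of these contrasts include libraries with short fragments, vehicle at day 5 and VB6 at day 7, so the day and the fragment length cannot be told apart.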

How the results depend on the processing

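Of 1250 alternative values for 92 named changes, 1197 kept direction and call, 48 lost the call and 5 reversed. All reversals came with the GC and length correction: Atp5pb 0.37 and Uqcrc2 0.08 (VB6, day 5), Cox6a1 0.23 (VB6, day 7), Uqcrc2 -0.04 (vehicle day 5 against day 3) and Atp5pb 0.53 (vehicle day 7 against day 5). The cause was not tested. Cox4i2's later rise with VB6 was not called by DESeq2 (adjusted p = 0.0685). By TPM, 23 of 30 summed ratios to ES moved, and all 30 stayed below 1.

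Counts of members called moved by more than 1.5 times as follows. Higher with VB6 at day 3 were 7 by DESeq2, 4 with DESeq2 size factors, 16 without a filter, 26 with only the groups compared, 0 by limma and 0 without the short-fragment groups, an alternative chosen after seeing the data. Lower there were 1 with only the groups compared, 1 by limma and 2 after the correction. At day 5, lower with VB6 were 2 without a filter, 8 by limma and 10 after the correction. At day 7, higher were 1 by DESeq2, 6 by limma and 5 after the correction, and lower were 41 after it. From ES to vehicle day 3, higher were 2 without a filter and 9 after the correction.

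From vehicle day 3 to day 5, higher were 9 by limma and 10 after the correction. From vehicle day 5 to day 7, lower were 10 by limma and 10 after it. From vehicle day 3 to day 7, limma called 20 higher and 21 lower, and the correction 22 higher. From VB6 day 3 to day 5, limma called 6 higher and 27 lower, and the correction 6 and 37. From VB6 day 5 to day 7, higher were 1 by DESeq2, 1 with DESeq2 size factors, 8 by limma and 8 after the correction, and lower were 42 after it. The corrected interactions gave 32 higher and 9 lower (day 5 minus day 3) and 11 higher and 49 lower (day 7 minus day 5), and limma gave 7 higher in the latter.

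Leaving out each library in turn gave ranges for higher and lower counts. They were 0 to 4 and 0 to 0 for VB6 at day 3, 67 to 72 and 3 to 5 at day 5, and 0 to 0 and 69 to 71 at day 7. They were 0 to 5 and 42 to 62 for vehicle day 3 against ES, 2 to 3 and 69 to 70 for vehicle day 5 against day 3, 65 to 69 and 3 to 5 for day 7 against day 5, and 4 to 7 and 25 to 35 for day 7 against day 3. They were 2 to 3 and 41 to 58 for VB6 day 5 against day 3, and 0 to 1 and 69 to 73 for day 7 against day 5. For the interactions they were 55 to 63 and 4 to 6, then 3 to 4 and 74 to 74.

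Same-numbered libraries had correlations of -0.236 to 0.147 in their deviations from the group means, and differently numbered ones -0.16 to 0.151. These values show no pairing by replicate number, but with 3 libraries per group they cannot exclude it. With a replicate block, 1 member was higher with VB6 at day 3 and 3 were lower from vehicle day 5 to day 7. Depth limits the members that did not pass the filter and also Ndufb11b, which stood at the level of 3 counts (0.169 and 0.159 CPM) in VB6 day 7 replicates 2 and 3.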
